A study of Mus musculus with 12 samples.

Results

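The libraries titled H3K4 (n = 2) were compared with input chromatin (n = 2) over the genes that RNA polymerase III (Pol III) transcribes in mouse liver, together 4 of the 12 chromatin immunoprecipitation (ChIP-seq) libraries of the study. All 532 stretches that the 12 coverage files share were taken. Each stretch is a gene, or a group of close genes, plus 150 bp on each side, called its flanks. All libraries came from perfused livers of C57/BL6 mice, all male and aged 12 to 14 weeks. The mice were kept under 12 h of light and 12 h of dark for 2 weeks and then for 7 days with food only between Zeitgeber time (ZT, hours after lights on) 12 and 24. No mouse was genetically modified or treated with a drug, as far as the labels say. Livers of 5 mice were taken at ZT 2 and of 5 more at ZT 26, the biological replicate. The labels do not say which replicate number is which time, nor whether mice were pooled, so p-values measure only the spread between libraries. Whole liver holds several cell types, and a signal in few cells cannot be told apart from a weak signal in all of them.

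Title and antibody field contradict each other for the histone libraries. Where the title says H3K4 (2 libraries) the antibody field says H3K36me3, and where it says H3K36 (2 libraries) the field says H3K4me3. The title and the track header agree for the libraries described here, and they are called H3K4-titled after these. Trimethylation of lysine 4 of histone H3 (H3K4me3) is known as a mark of nucleosomes beside active transcription starts, and trimethylation of lysine 36 (H3K36me3) as a mark of the bodies of genes that Pol II transcribes. Coverage fell with distance from annotated protein-coding starts: its median was 7.75 and 9.55 reads per base in the 2 H3K4-titled libraries over the 35 stretches under 500 bp from a start, and 0.355 and 0.663 over the 349 stretches over 10000 bp away. In input the same medians were 1.05 and 1.07 near starts and 1.04 and 1.03 far from them. The H3K36-titled libraries had 0.349 and 0.204 near starts. Over the 9 stretches in annotated exons they had 2.14 and 1.15, against 0.204 and 0.204 over the 416 intergenic ones. The H3K4-titled libraries had 1.53 and 2.91 in exons and 0.640 and 1.14 in intergenic stretches. Coverage here was not scaled for depth, so these values compare places within a library and not 1 title with the other. Which mark each title holds was not tested. Other libraries also fell with distance: the medians near and far from starts were 82.5 and 7.08 for Pol III, and 6.94 and 1.34 for replicate 1 of the Pol II subunit RPB2.

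Pol III makes short RNAs such as transfer RNA (tRNA), 5S ribosomal RNA and U6 spliceosomal RNA. At tRNA genes the promoter lies inside the gene as the A and B boxes, which the factor TFIIIC binds, and TFIIIB then sits just upstream and brings in the polymerase. Genes such as U6, 7SK and RNase MRP RNA have their promoter upstream of the start. tRNA genes are short, and occupied ones are known to be largely free of nucleosomes, with marked nucleosomes to either side. Of the 532 stretches, 390 held at least 1 predicted tRNA gene, 50 were 5S rRNA genes, 14 were other named short RNA genes and 78 matched neither the annotation nor the tRNA prediction.

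The sequences of 2 tRNA genes with flanks on both sides show what lies under the profiles. They are from the NCBIM37 (mm9) genome, 5′ to 3′ on the strand of the gene, with the gene in capitals and 100 bp of each flank in lower case. The first is the gene with the deepest dip, on the minus strand at chr5:125885877-125886148, and the second the tRNA gene with the largest mean fold of both flanks over input among stretches with input above 0 in both flanks of both libraries, on the plus strand at chr17:26011933-26012203.
tRNA-Asp (GTC): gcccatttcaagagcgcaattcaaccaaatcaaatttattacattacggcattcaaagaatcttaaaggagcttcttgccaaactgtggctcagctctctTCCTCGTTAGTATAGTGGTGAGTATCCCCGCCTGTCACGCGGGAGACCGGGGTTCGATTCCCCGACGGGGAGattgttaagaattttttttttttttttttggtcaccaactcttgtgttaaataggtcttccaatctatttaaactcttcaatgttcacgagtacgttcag
tRNA-Gly (CCC): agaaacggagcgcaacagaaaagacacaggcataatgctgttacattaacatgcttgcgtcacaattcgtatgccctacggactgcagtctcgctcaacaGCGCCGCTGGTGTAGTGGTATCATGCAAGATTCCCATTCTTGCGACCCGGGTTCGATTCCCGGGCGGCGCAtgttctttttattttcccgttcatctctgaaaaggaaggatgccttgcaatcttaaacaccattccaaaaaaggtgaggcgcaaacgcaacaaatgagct

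Over the 532 stretches the H3K4-titled libraries held 17033 and 26665 read equivalents of 76 bp and input 3563 and 3365. Depth outside the stretches is unknown. Coverage was spread far more widely in the H3K4-titled libraries, with quartiles of 0.119, 0.911 and 4.74 reads per base in replicate 1 and 0.205, 1.45 and 7.19 in replicate 2, against 0.648, 1.02 and 1.46 and 0.639, 1.02 and 1.38 in input. The H3K4-titled replicates ranked the stretches alike (Spearman's rho 0.928, a description over stretches), and the input replicates much less so (0.406).

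The H3K4-titled signal was lower over tRNA genes than beside them. In the 148 tRNA stretches with room for a single gene and at least 2 H3K4-titled reads per base, mean relative coverage (each stretch divided by its own mean) fell from 2.21 and 2.27 in the upstream bin farthest from the gene to 0.51 and 0.54 at its lowest in the gene, and rose again to 1.36 and 1.23 in the farthest downstream bin. Input stayed between 0.81 and 1.38 along the whole stretch. The Pol III subunit RPC1 had the opposite form, highest in the gene, and RPB2 was also higher in the gene than at the ends.

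**Figure D1:**
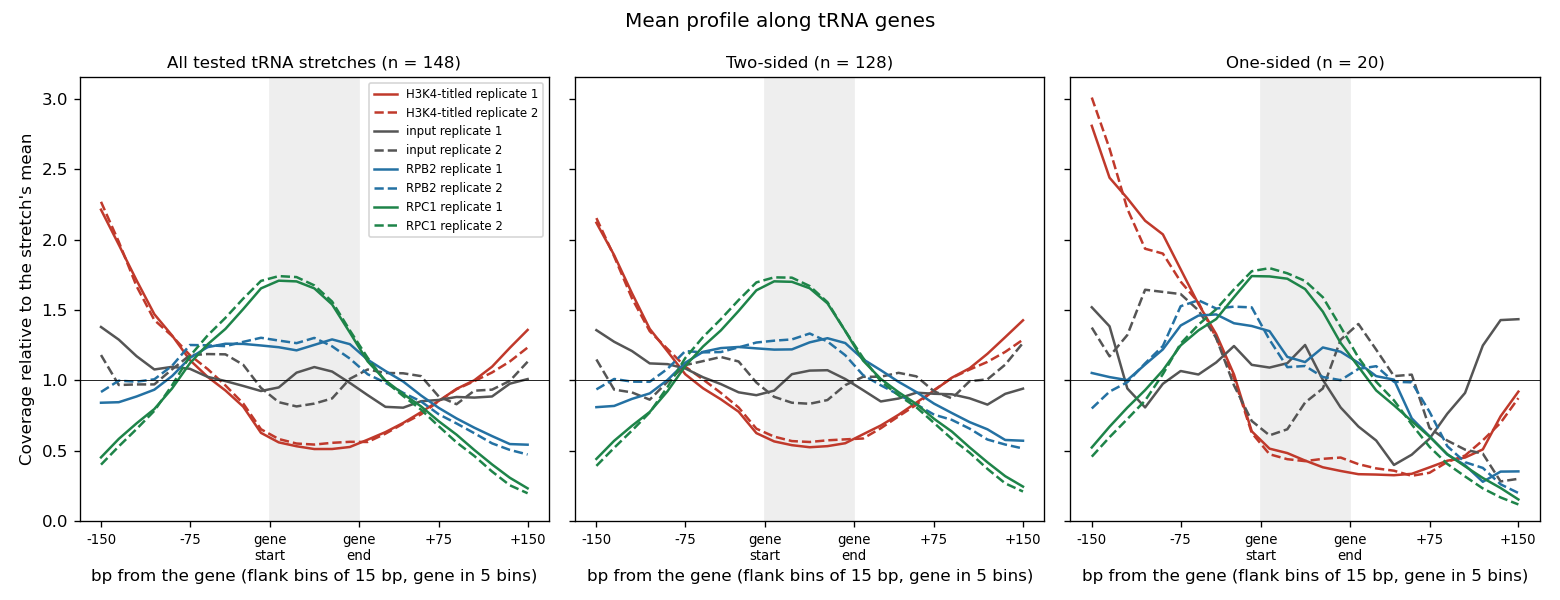
Mean coverage along tRNA genes relative to each stretch's own mean (y axis), by bp from the gene (x axis; 15-bp bins in flanks, gene shaded and cut into 5 bins), for all 148 tested tRNA stretches, those with both flanks above input (n = 128) and those with 1 (n = 20). Each line is 1 library, solid for replicate 1 and dashed for replicate 2. The H3K4-titled lines are highest at the outer ends and lowest over the gene, and in the right panel the downstream rise is small. In the one-sided stretches the median downstream coverage (0.162 and 0.927 reads per base) was below that of the gene (1.71 and 2.37). The upstream flank was higher in 16 of these 20 in each H3K4-titled library.

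The highest base of a flank was often at the edge of what the files cover. In the upstream flank of these tRNA genes it lay a median of 134.5 and 141.4 bp from the gene in the 2 H3K4-titled libraries, and in 40.5% and 51.4% of flanks it lay within 10 bp of the outer end. In the downstream flank the medians were 109.7 and 105.0 bp, with 28.9% and 30.3% at the outer end. Input maxima lay at 69.3 to 85.4 bp, with 7.75% to 10.1% at the outer end, close to the middle of the flank. The files stop 150 bp from the gene, so the true summit of many flank peaks, and its distance, was not measured.

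The dip over the gene was first read within each library, as log2 of gene coverage minus log2 of the mean of both flanks, after adding 0.5 to each. Coverage was not scaled first, and input flanks had medians of only 0.823 to 1.01 reads per base here, so the added 0.5 draws input ratios nearer to 0 than H3K4-titled ones. Over the 148 tRNA stretches the median ratio was -1.16 and -1.22 in the H3K4-titled libraries and -0.04 and -0.22 in input. The ratio was below 0 in both H3K4-titled libraries in 120 of 148 (81.1%) and in both input libraries in 47 (31.8%). The mean of the library medians was -1.19 ± 0.05 (SD, n = 2) for H3K4-titled, -0.13 ± 0.13 (SD, n = 2) for input and 0.30 ± 0.05 (SD, n = 2) for RPB2.

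A dip does not mean a peak on each side. Gene coverage was lower than both flanks in both H3K4-titled libraries in 48 of the 148 tRNA stretches, as a valley between 2 peaks. In 68 the gene lay between a higher and a lower flank in both, as a slope, and in 0 was it higher than both flanks in both libraries. The same counts in input were 14, 22 and 9. The remaining stretches had different forms in the 2 libraries of a group.

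Single dips were tested with limma against input over all 199 stretches of 1 gene. The gene was lower against its flanks than in input in 8 stretches (4.02% of those tested) and higher in 2 (1.01%) at a Benjamini-Hochberg adjusted p under 0.05, and 74 had an unadjusted p under 0.05. Of the 8, 6 were tRNA genes and 2 were 5S genes. The median difference from input was -1.06 over the 148 tRNA stretches, below 0 in 119 of them, and -0.73 over all 199. The median difference kept its sign when any 1 library was left out. Such a fit takes its spread from the other group alone, so its count of calls does not show which libraries the dips rest on. The stretches were chosen for H3K4-titled coverage: with no such filter the median over 368 stretches was -0.28 and 0 calls were made. Flank windows cut to the 75 bp next to the gene gave 0 calls, a pseudocount of 1 gave 22 lower and 15 higher, anchored scaling before the ratio gave 15 and 15, file totals gave 7 and 0, and a fit with all 12 libraries gave 58 lower and 20 higher. In that larger fit the gene was lower against its flanks than in RPB2 in 86 of 199 stretches (43.2%), 78 of them tRNA, and lower than in Pol III in 184 (92.5%), 134 of them tRNA.

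The deepest called dip was at tRNA-Asp (GTC) on chr5:125885827-125886198, which carries aspartate to the ribosome and is shown first above. Its upstream flank, gene and downstream flank had 9.43, 0 and 12.5 reads per base in H3K4-titled replicate 1 and 14.2, 0.222 and 20.2 in replicate 2. In input they had 1.01, 0 and 0.267 in replicate 1 and 0.653, 0 and 0.293 in replicate 2. The gene was thus empty or nearly so in all 4 libraries, and both flanks were far above input in both H3K4-titled libraries. The gene-to-flank ratio differed from that in input by -3.49 ± 0.19 (log2, standard error, SE; limma adjusted p = 0.00834). The input ratios were -1.19 and -0.96 with the gene at 0, so the flanks and the added 0.5 alone set them. The difference therefore does not show a dip that input lacks. Scaled by file totals before the ratio, the difference was -1.39 and missed the threshold (limma adjusted p = 0.0927).

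The other 5 called tRNA dips were shallower in the H3K4-titled libraries and had gene coverage above the mean of both flanks in both input libraries. At tRNA-Trp (CCA) on chr11:68876847-68877218, upstream flank, gene and downstream flank had 24.4, 3.00 and 5.19 reads per base in H3K4-titled replicate 1 and 30.4, 3.64 and 11.1 in replicate 2, and the gene had 2.10 and 2.32 in input (difference -3.20 ± 0.39, SE; limma adjusted p = 0.0365). Other calls were tRNA-Trp (CCA) on chr11:61221268-61221639 (-2.30 ± 0.32, SE), tRNA-Glu (TTC) on chr1:34491507-34491878 (-1.89 ± 0.20) and tRNA-Ile (AAT) on chr12:112083398-112083771 (-1.77 ± 0.25), each at a limma adjusted p of 0.0365. The last had a ratio in the H3K4-titled libraries that did not pass the test against 0 once input was left out (-0.53, limma adjusted p = 0.0856). The 2 5S genes called lower, on chr8:126147387-126147795 and chr8:126125319-126125730, had ratios of 0.03 to 0.07 in the H3K4-titled libraries and 0.80 to 0.98 in input; they fall outside the lists and were added after their values were seen.

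**Figure D2:**
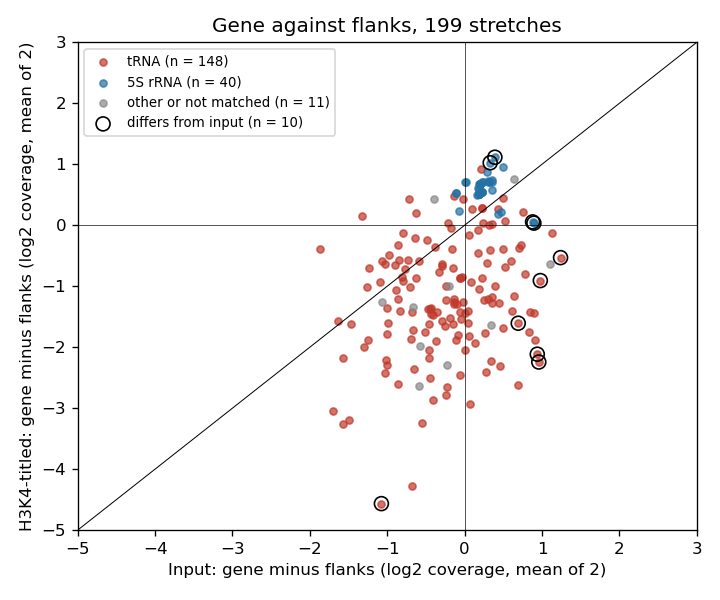
Gene coverage minus flank coverage on the log2 scale, mean of 2 libraries, in input (x axis) and H3K4-titled libraries (y axis) for 199 stretches of 1 gene; the diagonal marks equal values and rings mark the 10 that differed from input. Most tRNA points (148) lie below the diagonal and below 0, and the 40 5S points lie together, mostly above the diagonal.

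Each flank was then tested against input after scaling each library by its coverage over the 25% of stretches with the least Pol III, which sets those stretches as unenriched. Of 449 stretches with at least 10 read equivalents over the 4 libraries, 218 had both flanks above input (48.6%, called two-sided), 72 had 1 (16.0%, one-sided) and 159 had neither (35.4%, none). Among 315 tRNA stretches kept of 390, the counts were 146, 48 and 121. The 50 5S genes gave 49, 1 and 0, the 72 unmatched stretches kept gave 16, 20 and 36, and the 12 other named genes kept gave 7, 3 and 2. These counts rest on the scaling: file totals left 20 two-sided and 353 with neither, and coverage as deposited left 80 and 270. Leaving out input replicate 1 gave 138 two-sided and 118 one-sided, and leaving out input replicate 2 gave 139 and 107.

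The classes were called from this flank coverage, so the values before any scaling in tRNA stretches with known strand are a description of them. Two-sided stretches (n = 141) had a median of 8.68 and 12.5 reads per base upstream, 3.87 and 5.95 in the gene and 5.87 and 8.58 downstream in the 2 H3K4-titled libraries. One-sided stretches (n = 42) had 1.66 and 3.01 upstream, 0.816 and 1.46 in the gene and 0.353 and 0.767 downstream. Stretches with neither flank called (n = 120) had medians of 0 and 0.167 upstream, 0 and 0 in the gene and 0 and 0.09 downstream. Input medians lay between 0.490 and 1.26 in all 3 parts and classes.

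The 8 stretches with the largest mean fold of both flanks over input, among those with input above 0 in both flanks of both libraries, kept both calls with coverage as deposited and with median-of-ratios scaling, and 7 of the 8 kept them with file totals. At tRNA-Gly (CCC) on chr17:26011883-26012253, 342 bp from the start of 0610011F06Rik and shown above, upstream flank, gene and downstream flank had 50.5, 12.2 and 24.6 reads per base in H3K4-titled replicate 1 and 57.4, 18.7 and 33.9 in replicate 2. Input had 0.293, 0.761 and 0.980 in replicate 1 and 0.653, 0.282 and 0.227 in replicate 2, so no input value reached any H3K4-titled value. The scaled fold was 9.18 ± 0.51 (log2, SE) upstream and 8.13 ± 0.56 downstream, with limma adjusted p of 0.000159 and 0.00018. The SE leaves out the choice of scaling. Over all stretches kept, that choice moved the median level difference by -3.07 as deposited and by -4.56 with file totals. At tRNA-Pro (CGG) on chr11:68853737-68854108 the 2 flanks were nearly alike, with 29.98 and 34.2 reads per base in replicate 1 and 40.3 and 58.3 in replicate 2, around gene values of 8.08 and 15.2.

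At tRNA-Phe (GAA) on chr14:118488597-118488969 the flanks had 46.1 and 67.1 reads per base in replicate 1 and 61.8 and 76.1 in replicate 2, and the gene 20.2 and 24.4, far from any annotated coding start (37279 bp). A tRNA-Pro (TGG) and a tRNA-Pro (AGG) gene shared the stretch at chr7:105963775-105964407, where the flanks had 54.0 and 84.0 reads per base in replicate 1 and 90.6 and 130 in replicate 2, and the part between them 9.79 and 15.0. At tRNA-Trp (CCA) on chr10:90644007-90644378 both flanks were called, but the upstream one had 69.1 and 151 reads per base and the downstream one 5.34 and 10.1. At tRNA-Tyr (GTA) on chr3:19528205-19528597, in an intron of 1700064H15Rik and 230 bp from its start, the gene (48.7 and 71.9) lay between the upstream flank (42.1 and 69.1) and the downstream flank (65.6 and 93.2), a slope rising downstream. Its dip did not pass the test (-0.21 ± 0.60, SE; limma adjusted p = 0.822), and its flanks differed relative to input (-1.35 ± 0.34, SE; limma adjusted p = 0.0447). The tRNA gene with the highest H3K4-titled coverage, chosen after its values were seen, was tRNA-Glu (TTC) on chr14:79881325-79881696 in an intron of Elf1. Its upstream flank, gene and downstream flank had 20.4, 117 and 87.6 reads per base in replicate 1 and 30.3, 165 and 168 in replicate 2, so the gene was above both flanks in replicate 1 and between them in replicate 2.

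The remaining 2 of the 8 matched no gene. At chr6:128792926-128793580 the left flank had 139 and 246 reads per base, the right one 38.2 and 69.5 and the middle 44.6 and 75.7, with Pol III coverage of 121 ± 22 (SD, n = 4 libraries). At chr8:19784551-19785003 the H3K4-titled coverage of 212 and 489 reads per base was the highest of all 532 stretches, with the middle at 347 and 1005. This stretch also had input of 5.93 and 3.96, against an input median of 1.02, RPB2 of 146 and 192, Pol III of only 7.09 ± 2.41, and 44.7% of its bases at fractional coverage, where reads appear to be divided among places. Its 2 flank calls were lost with file totals, and when input replicate 1 or input replicate 2 was left out, and what the input and fractional values add to its coverage was not tested.

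**Figure D3:**
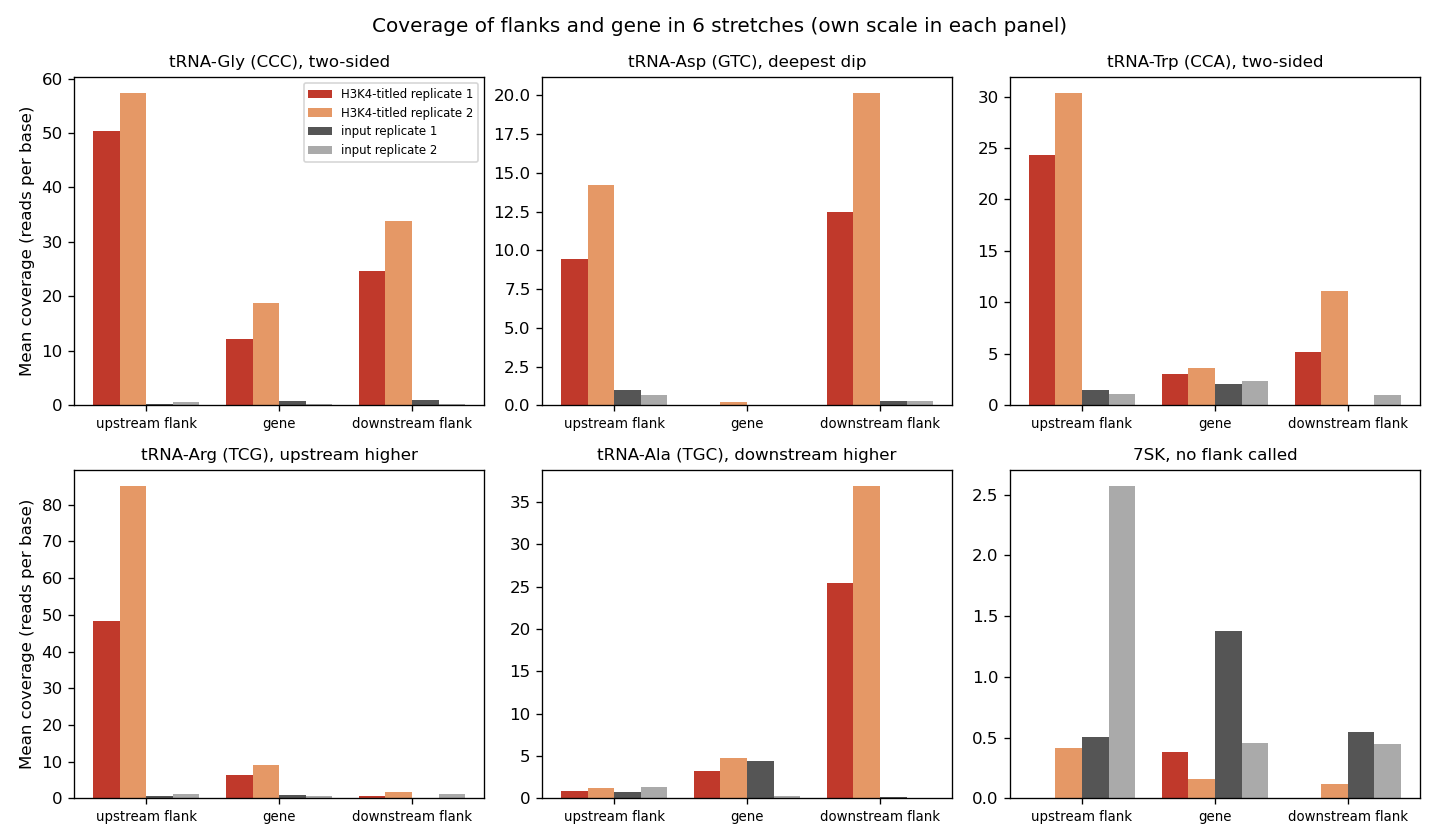
Mean coverage in reads per base (y axis, own scale in each panel) of the upstream flank, gene and downstream flank in 5 tRNA stretches and 7SK, 1 bar per library. The gene is lower than both flanks at tRNA-Gly, tRNA-Asp and tRNA-Trp, 1 flank stands far above the other at tRNA-Arg and tRNA-Ala, and at 7SK no H3K4-titled bar is above 0.413 reads per base.

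Many stretches had the signal mainly on 1 side. The sides were compared only in stretches with at least 2 H3K4-titled reads per base, which thus entered through H3K4-titled coverage alone. What that choice adds to the difference from input was not tested. The asymmetry was the log2 ratio of the upstream over the downstream flank within each library. Over 154 tRNA stretches with known strand its quartiles were -0.97, 0.65 and 3.05 in H3K4-titled replicate 1 and -0.78, 0.79 and 2.89 in replicate 2, and -0.56, 0.22 and 1.03 and -0.78, 0 and 0.89 in input. The upstream flank was more than 4-fold higher (over 2 on the log2 scale) in both H3K4-titled libraries in 44 stretches and the downstream flank in 16. The mean of the library medians was 0.68 ± 0.11 (SD, n = 2) in H3K4-titled libraries, 0.11 ± 0.15 in input and 0.44 ± 0.18 in RPB2.

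Tested against input with limma, the 2 flanks differed in 74 of 235 stretches with at least 2 H3K4-titled reads per base (31.5%). Of the 203 with known strand, the upstream flank was higher in 40 (19.7%) and the downstream flank in 22 (10.8%). All 40 of the former and 19 of the latter were among the 154 tRNA stretches, and the other 3 were named genes, among them 2 U6 genes. No 5S gene was called (0 of 40). Leaving out input replicate 2 gave 0 calls in either direction, leaving out H3K4-titled replicate 1 gave 24 and 12, and leaving out replicate 2 gave 20 and 9. A pseudocount of 0.25 gave 19 and 11, and file totals before the ratio 21 and 9. Windows of 75 bp next to the gene gave 12 and 7, and those at the outer end 49 and 21. Of the 72 one-sided stretches, 35 had enough coverage for the asymmetry test and 24 of those differed between flanks, so a flank that missed the threshold was not always shown to be lower than the other.

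The sequences of the flanks are printed for a tRNA gene with the upstream side higher and for one with the downstream side higher. In 55 of the 74 called stretches the higher flank had more CpG. In both printed stretches another stretch also lay close by on the higher side. The sequences are 5′ to 3′ on the strand of the gene, from the same genome, with each CG in capitals. The tRNA-Arg (TCG) flanks are at chr11:115274943-115275092 and chr11:115275166-115275315 on the plus strand, and the tRNA-Ala (TGC) flanks at chr11:48648003-48648152 and chr11:48647781-48647930 on the minus strand.
tRNA-Arg (TCG), upstream: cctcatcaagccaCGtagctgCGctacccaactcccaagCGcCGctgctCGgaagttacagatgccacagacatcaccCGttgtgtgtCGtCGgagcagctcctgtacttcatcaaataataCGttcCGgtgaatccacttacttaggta
tRNA-Arg (TCG), downstream: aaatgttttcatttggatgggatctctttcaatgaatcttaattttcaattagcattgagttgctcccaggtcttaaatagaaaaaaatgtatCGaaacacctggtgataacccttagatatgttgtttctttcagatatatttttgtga
tRNA-Ala (TGC), upstream: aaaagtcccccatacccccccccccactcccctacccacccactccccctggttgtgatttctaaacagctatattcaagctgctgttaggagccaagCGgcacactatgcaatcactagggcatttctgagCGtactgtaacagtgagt
tRNA-Ala (TGC), downstream: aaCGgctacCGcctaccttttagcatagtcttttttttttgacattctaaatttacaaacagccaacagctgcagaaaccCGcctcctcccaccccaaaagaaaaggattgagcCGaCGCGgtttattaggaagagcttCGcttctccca

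At tRNA-Arg (TCG), chr11:115274943-115275315, the upstream flank holds 10 CG and the downstream flank 1, and another stretch lies 102 bp upstream. H3K4-titled coverage was 48.3 and 85.1 reads per base upstream, 6.36 and 9.0 in the gene and 0.740 and 1.63 downstream. Input had 0.533 and 1.25 upstream and 0 and 1.30 downstream, so the downstream flank overlapped input as deposited. The ratio of flanks exceeded that of input by 4.81 ± 0.60 (log2, SE; limma adjusted p = 0.0159). At tRNA-Ala (TGC), chr11:48647781-48648152 in an intron of Trim7, the upstream flank holds 2 CG and the downstream flank 7. Another stretch lies 173 bp downstream of it. Coverage was 0.813 and 1.24 upstream, 3.21 and 4.78 in the gene and 25.4 and 36.9 downstream, against 0.160 and 0 downstream in input (difference -5.80 ± 0.45; limma adjusted p = 0.0159).

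The other upstream examples were led by the stretch with tRNA-Gly (TCC) and tRNA-Glu (CTC) at chr1:173032737-173033395, where the upstream flank had 45.3 and 52.4 reads per base and the downstream flank 0.847 and 4.01 (difference 5.76 ± 0.97). A pair of tRNA-Leu (CAG) genes had 35.6 and 43.4 reads per base upstream against 0 and 0.480 downstream (chr1:172968595-172968977), and 47.1 and 74.5 against 0.880 and 1.70 (chr13:23545151-23545533). At tRNA-Pro (TGG) on chr17:23683293-23683664 the values were 65.4 and 80.6 against 3.23 and 2.47. All 4 had more CpG upstream than downstream, from 0.667 to 4.67 per 100 bp downstream and from 2.0 to 8.0 upstream. A further stretch lay 13 bp upstream of the tRNA-Gly and tRNA-Glu stretch. It was 245 bp upstream for the tRNA-Leu on chromosome 1 and 512 bp upstream for the tRNA-Pro. None lay under 1000 bp from the tRNA-Leu on chromosome 13.

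Downstream examples included tRNA-Pro (AGG) on chr1:167571615-167571986, with 0.533 and 0.547 reads per base upstream and 18.3 and 33.7 downstream (difference -5.18 ± 0.77). This stretch went against the CpG pattern, with 2.00 per 100 bp upstream and 1.33 downstream. At tRNA-Ala (AGC) on chr5:31190738-31191110, 107 bp from the start of Agbl5, the values were 3.23 and 3.69 upstream and 34.9 and 55.4 downstream. tRNA-Glu (CTC) on chr3:96961858-96962229, 621 bp from the start of Acp6, had 1.25 and 1.70 against 14.1 and 12.1. At tRNA-Cys (GCA) on chr11:97850087-97850458 they were 1.99 and 2.61 against 51.6 and 85.4. A further stretch lay 265 bp downstream of the tRNA-Pro and 305 bp downstream of this tRNA-Cys, but 43 bp upstream of the tRNA-Ala. None lay under 1000 bp from the tRNA-Glu.

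**Figure D4:**
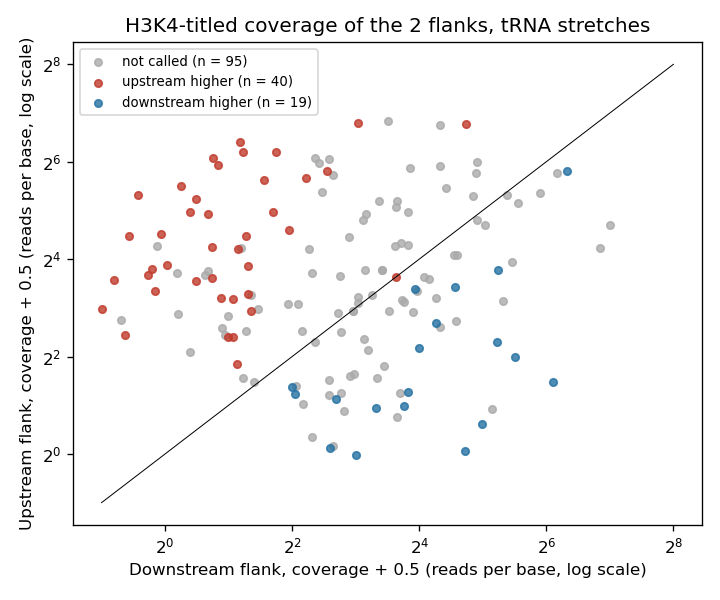
H3K4-titled coverage of the upstream flank (y axis) against the downstream flank (x axis), mean of 2 libraries plus 0.5 on log scales, for 154 tRNA stretches; colours mark flanks that differed from each other relative to input (40 upstream higher, 19 downstream higher, 95 not called), and the line marks equal values. Coloured points lie mostly far from the line; 1 lies on it because the test compares the ratio with that in input.

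Of the 74 called stretches, 72 had different CpG content in the 2 flanks, and the higher flank had more CpG in 55. Median CpG per 100 bp was 4.33 upstream and 1.67 downstream in the 40 tRNA stretches with the upstream flank higher. It was 2.00 and 2.67 in the 19 with the downstream flank higher, and 4.00 and 2.67 in the 95 not called. Across the 163 stretches tested with known strand, 5S genes left out, asymmetry had Spearman's rho of 0.324 with the CpG difference of the flanks. A protein-coding start lay under 1000 bp away in 14, on the side of the higher flank in 12. A further stretch lay under 1000 bp away on only 1 side in 30, on the side of the higher flank in 22. Among the 26 called stretches with known strand and no neighbour that close, the upstream flank was higher in 15. With the test confined to stretches over 1000 bp from the next, 8 upstream and 7 downstream calls were made. These features move with the side of the signal and with each other, and their parts in it were not tested.

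Flank class went with Pol III coverage (the mean of 4 RPC1 and RPC4 libraries), which entered the classes through the scaling: the stretches with least Pol III are set as unenriched, so that few of them have a flank called is largely fixed by it. Its median was 61.6 reads per base in two-sided, 45.2 in one-sided and 1.86 in none. RPB2 had 3.81, 2.36 and 0.991, and input 1.14, 0.941 and 1.20. Of 77 tRNA stretches kept with Pol III of at least 100 reads per base, 65 were two-sided, 11 one-sided and 1 none. Across the 399 stretches kept other than 5S genes, which share depth, mappability and base composition, H3K4-titled coverage had Spearman's rho of 0.790 with Pol III, 0.731 with RPB2 and 0.682 with CpG per 100 bp of the flanks, while input had -0.061 with CpG.

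CpG per 100 bp of both flanks had a median of 4.00 in two-sided, 2.00 in one-sided and 0.667 in none, or 3.00, 2.17 and 1.00 in tRNA stretches alone. In tRNA stretches with known strand, an upstream flank that was above input had a median of 3.33 and one that was not 1.33, and for downstream flanks these were 2.67 and 0.667. A protein-coding start lay within 1000 bp in 16.97% of two-sided, 12.5% of one-sided and 3.14% of none. The letters of the B box, GGTTCGANTCC on either strand, were found in 55.5% of two-sided, 41.7% of one-sided and 21.5% of none among tRNA stretches, and in 29.3% of all 532. No other motif was searched.

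**Figure D5:**
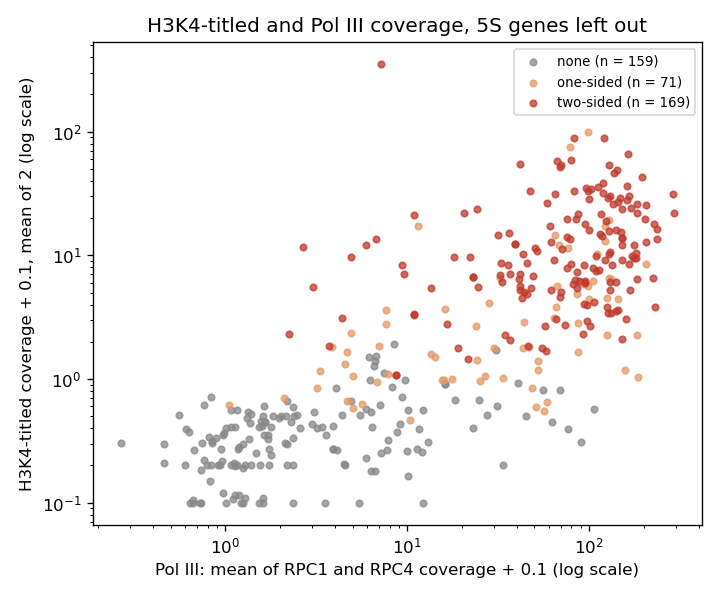
H3K4-titled coverage (y axis, mean of 2 libraries) against Pol III coverage (x axis, mean of 4 libraries), in reads per base plus 0.1 on log scales, for 399 stretches kept other than 5S genes, coloured by flank class. Stretches with no flank called (159) lie mostly at low Pol III, and the point at the top is the chr8:19784551-19785003 stretch with Pol III of 7.09.

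Among kept tRNA stretches that follow each other within 1000 bp, 36 pairs were two-sided in both, 16 were two-sided and one-sided, 6 were two-sided and none, 4 were one-sided in both and 8 were none in both.

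A few stretches had much Pol III and no flank called. 7SK RNA, the RNA of the complex that holds back the elongation factor P-TEFb, had Pol III of 89.7 ± 21.1 and H3K4-titled coverage of 0.202 and 0.212 over chr9:78022960-78023590. Input there was 0.971 and 0.957, higher as deposited than both H3K4-titled values. The scaled difference was 0.80 ± 0.74 (log2, SE; limma adjusted p = 0.36), and it was below 0 under every other scaling tried. tRNA-Tyr (GTA) on chr13:23558795-23559184 had 0 and 0.585 against 1.65 and 1.34 in input, with Pol III of 76.1 ± 25.9 (scaled difference -0.49 ± 0.96; limma adjusted p = 0.675). tRNA-Ser (GCT) on chr13:23613589-23613970 had 0.741 and 0.685 against 0.995 and 1.19. The anchored scaling nevertheless called it above input in level (2.25 ± 0.68; limma adjusted p = 0.00765), while the difference was -0.39 as deposited and -1.22 with file totals, so a call above input can stand on less coverage than input. tRNA-Lys (TTT) on chr19:12084036-12084408 had 0.107 and 0.592 against 0.654 and 1.18 (1.13 ± 0.76; limma adjusted p = 0.202). None of these 4 exceeded input as deposited in both libraries.

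The other named genes differed among themselves. The gene beside Parp2 had 19.1 and 23.4 reads per base against 0.365 and 0.717 in input, with the gene itself (26.5 and 37.4) above both flanks, 174 bp from the Parp2 start. Of 5 U6 genes, which make the RNA of the catalytic core of the spliceosome, 3 were two-sided, 1 one-sided and 1 had neither flank called. The facing pair on chromosome 12 had 9.99 and 15.6 (chr12:53704625-53705031) and 7.21 and 9.32 reads per base (chr12:53705327-53705728), with the gene of the former at 1.63 and 2.86 between flanks of 9.09 and 16.9 and of 14.5 and 25.8. The U6 gene at chr9:62980940-62981346 was one-sided, with 9.09 and 8.43 downstream and 0.247 and 0.180 upstream. The U6 gene at chr10:79371790-79372196, 257 bp from the start of Med16, had 0.868 and 0.790 against 1.18 and 0.638 in input. The anchored scaling called it above input in level (2.66 ± 0.69, SE; limma adjusted p = 0.00293), though the groups overlapped as deposited. The U6 gene at chr10:79448101-79448507 had 9.17 and 26.2 downstream and 2.87 and 2.81 upstream.

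The 7SL genes, whose RNA is the backbone of the signal recognition particle, had 5.65 and 6.50 beside Rps29 and 4.01 and 4.89 beside Nemf, against input of 1.67 and 0.553 and of 1.01 and 0.815. In both, the gene was higher than the flanks (8.55 and 9.16, and 6.66 and 6.94), with 44.8% and 48.1% of bases at fractional coverage. RNase MRP RNA, which acts in rRNA processing, had 1.53 and 2.91 against 0.727 and 0.812, again highest in the gene. Both Y RNA genes had at most 0.709 reads per base in either library, against input of 0.363 to 0.495. The anchored scaling still called the one at chr6:47731473-47731874 above input in level (2.67 ± 0.71, SE; limma adjusted p = 0.00346). Its upstream flank was called at 0.480 and 0.507 reads per base against 0.127 and 0 in input. The other Y RNA gene was left out for low coverage. U6atac, of the minor spliceosome, had the highest Pol III coverage (136 ± 59) of the 83 stretches left out for low coverage, with 0.535 and 0.164 against 0.357 and 0 in input.

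The 5S rRNA genes, a tandem repeat on chromosome 8 between 126062536 and 126147795, had a different form from the tRNA genes. Coverage over the 50 stretches ranged from 0.521 to 2.14 (median 1.92) in H3K4-titled replicate 1 and from 0.829 to 4.07 (2.96) in replicate 2, and from 0.660 to 1.99 (1.46) and 0.389 to 1.70 (1.08) in input. The groups overlapped as deposited, so their 49 two-sided calls rest on the anchored scaling: with file totals 0 of them were above input in level and 49 below. In 37 of 40 tested the gene was higher than both flanks in both H3K4-titled libraries, and in 7 in input. The mean of the library medians of the gene-to-flank ratio was 0.61 ± 0.06 (SD, n = 2) against 0.22 ± 0.02 in input and 0.63 ± 0.19 in RPB2. The 2 calls of a gene higher than in input were n-R5s104 (0.72 ± 0.09, SE) and n-R5s122 (0.69 ± 0.09), each at a limma adjusted p of 0.0365. A median of 99.9% of bases in these stretches had fractional coverage, so the copies are not separate measurements.

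By amino acid, tRNA-Cys had the most stretches without signal. Of 43 kept, 39 had no flank called and 4 were two-sided, where 121 of all 315 tRNA stretches kept and 35.4% of all 449 had no flank called. Their Pol III was low too, with a median of 1.09 reads per base over all 55 tRNA-Cys stretches, so the scaling bears on this count. The 4 lay on chromosomes 11 and 17, at 14.6 to 30.3 reads per base against a median of 0.167 for all 55 tRNA-Cys stretches. Of 20 tRNA-Ala stretches kept, 11 had no flank called and 8 were two-sided, and 14 more were left out for low coverage (median Pol III 0.905). Few were without a flank among tRNA-Leu (1 of 19) and tRNA-Arg (2 of 18), where 15 and 13 were two-sided and the median Pol III was 22.0 and 74.98. No test of a family against the rest was made. All 5 kept tRNA-Gly (TCC) stretches were two-sided, with 8.42 to 28.2 reads per base, whereas tRNA-Gly (CCC) gave 2 two-sided and 5 none of 7, from 0 to 36.6. Genes with the same anticodon thus ranged from none to two-sided in most families, for example from 0.351 to 89.0 reads per base among 8 tRNA-Glu (TTC) stretches.

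Stretches with little Pol III, which the scaling takes as unenriched, had low H3K4-titled coverage as deposited. The 5 with the highest H3K4-titled coverage among the 25% of stretches with the least Pol III had group means no higher than that of tRNA-Ala (AGC) on chr4:132071773-132072144, with 0.413 and 0.826 reads per base against 0.798 and 0.322 in input. It was still called above input in level with the anchored scaling (2.62 ± 0.72, SE; limma adjusted p = 0.00427). The other 4 were tRNA-Ala (AGC) on chr11:116277143-116277515, tRNA-Glu (CTC) in an intron of Arrb1, and an unmatched stretch and a tRNA-Cys (GCA) on chromosome 6, each between 0 and 1.02 in either library. Of these, the tRNA-Ala stretch on chromosome 11 was one-sided: the anchored scaling called its downstream flank above input (2.77 ± 0.87, SE; limma adjusted p = 0.0357). That flank had 1.75 and 0.767 reads per base against 0.960 and 1.67 in input, so the groups overlapped as deposited. At the lowest stretches called below input, tRNA-Glu (CTC) on chr3:123601955-123602326 had 0 and 0 against 1.81 and 1.57, tRNA-Pro (TGG) on chr17:23675583-23675954 had 0 and 0.0134 against 1.45 and 1.85, and tRNA-Gly (CCC) on chr3:96227806-96228176 had 0 and 0 against 1.09 and 1.70. No fold is given against values of 0.

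Over whole stretches, 305 of 449 were above input (67.9%) and 17 below (3.79%) with the anchored scaling, 203 and 16 of them tRNA. The split followed the scaling: 94.7% of calls were above input here, 60.5% with coverage as deposited (178 above, 116 below), 50.5% with median of ratios (159 and 156) and 27.2% with file totals (93 and 249). File totals moved the median difference by -4.56 on the log2 scale. Of the tRNA stretches, 203, 148, 133 and 77 were above input under these 4 scalings. Leaving out H3K4-titled replicate 1 or 2 raised the count below input to 34 or 61.

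The stretches that matched no gene were classed in the same way. The order of their H3K4-titled coverage thus follows from the calls, and the scaling bears on that of Pol III. The 16 two-sided ones had a median of 9.27 H3K4-titled reads per base and 67.1 of Pol III, the 20 one-sided 1.28 and 12.3, and the 36 with none 0.304 and 6.20. Their input medians were 1.04, 0.959 and 1.27. The B box letters were in 2 of the 78 (2.56%).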

How the data were processed

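The authors' deposited files give ChIP-seq coverage, a signal in reads per base, over the same 532 stretches (370 to 1170 bp). A read alone adds 1.0 over 76 bp, and no scaling for depth is visible in the values. The build is mm9, per the submitters' processing notes. The sources used here name no aligner, read filter or weighting behind fractional values. Per the labels' protocols, libraries had 15 PCR cycles and fragments of about 250 bp with adapters. A stretch present in only some files (1) was left out. Abutting lines were joined, and starts were read as 1-based, under which 366 of 448 single-gene stretches held a tRNA cloverleaf exactly 150 bp from both ends (0 if read as 0-based). tRNA names are these predictions (at least 17 of 21 stem pairs, 19 in longer stretches; 415 genes), and other names come from GENCODE vM1 of the same build.

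Coverage was tested as log2(coverage + 0.5) with limma 3.58.1 (trend) in R 4.3.3, two-sided, on the 4 libraries (2 residual degrees of freedom), with Benjamini-Hochberg adjustment over all features kept at 0.05. Level and flanks were scaled by the 10% trimmed mean over the 25% of stretches with the lowest Pol III coverage. They needed 10 read equivalents over the 4 libraries. The H3K4-titled libraries were thereby divided by 0.0637 and 0.131, and input by 0.791 and 0.959, before 0.5 was added. A few H3K4-titled reads can thus give a large fold in level and flanks. In the unscaled ratios the added 0.5 draws values at low coverage toward 0. Dip and asymmetry are ratios of unscaled coverage within a library, each part after adding 0.5, and needed 2 H3K4-titled reads per base; the dip was tested in stretches of at most 444 bp. Functions were tested on simulated data. Named stretches are the 8 largest two-sided folds, 6 largest dips, 3 largest opposite dips, 5 largest asymmetries each way, the 5 with most Pol III among those with no flank called, the 5 with most H3K4-titled signal at low Pol III, the 3 lowest and the named genes other than tRNA. Results for 2 stretches of these lists are not reported here. The members and lists were chosen with earlier results of these data known. Alternatives covered scaling, filters, windows, pseudocounts, the libraries in the fit, a replicate block and leaving out each library. Whether replicate numbers pair the libraries is not given by the labels. Deviations correlated at over 0.1 in 2 of 15 pairs of groups (-0.13 to 0.12), H3K4-titled with RPC1 and with RPC4, which does not settle it.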

Additional observations from a re-analysis of the deposited data

How the results depend on the processing

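The full depth of the libraries is unknown, and input held few reads per stretch, so a modest difference in a single stretch was not detectable. Level and flank counts depend on scaling, and so do called dips and asymmetries through the pseudocount. Of the 305 stretches above and 17 below input, file totals gave 93 and 249, coverage as deposited 178 and 116, median of ratios 159 and 156, and anchoring on 50% of stretches 31 below. No filter gave 44 below, and at least 20 read equivalents gave 0 below, where 306 were tested. Two-sided flanks (218) became 20 with file totals, 80 as deposited, 44 with median of ratios and 136 without stretches with over 20% fractional bases, and the 20 were all among the 218. Stretches with no flank called (159) became 353, 270, 311 and 105, then 243 without a filter and 30 at 20 read equivalents, where 45 were one-sided.

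The median dip of -0.73 kept its sign in every alternative and became -1.08 at 5 or more reads per base, -0.28 with no coverage filter, -1.08 without fractional stretches, -0.36 with file totals before the ratio, -0.34 and -0.96 with 75-bp flank windows next to the gene and at the outer end, and -1.06 without 5S genes. Called dips (8 lower, 2 higher) became 27 and 0 at 5 reads per base, 0 and 0 with no filter, 0 higher without fractional stretches, 0 and 0 with inner windows, 3 and 0 with outer windows, 16 and 21 with the central 40 bp as the gene, 1 and 0 with stretches of any length, 22 and 15 at a pseudocount of 1, 15 and 15 with anchored scaling and 7 and 0 with file totals before the ratio, 58 and 20 with 12 libraries, 13 and 0 without 5S genes and 104 and 42 with no input. Called asymmetries (40 upstream, 22 downstream) became 14 downstream with no coverage filter, 12 and 7 with inner windows, 19 and 11 at a pseudocount of 0.25, 21 and 9 with file totals before the ratio, 62 upstream with 12 libraries, 68 upstream with no input, and 8 and 7 for stretches over 1000 bp from the next. Alternatives without 5S genes or fractional stretches, with no input, with scaling before the ratio and with isolated stretches were chosen after seeing the data.

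With the replicate number as a block, a pairing that the labels do not give, 0 stretches were below input and 1 dip was higher. In that fit 13 upstream and 9 downstream asymmetries were called. The block left two-sided flanks at 206 and level above input at 302. A fit without 1 library takes its spread from the other group alone, so counts of calls from it also reflect that change. Leaving out 1 library at a time gave 246 to 333 above and 19 to 61 below input, 138 to 203 two-sided, 92 to 118 one-sided and 151 to 203 with none, 0 to 40 lower and 0 to 5 higher dips, a median dip of -0.76 to -0.55, and 0 to 29 upstream and 0 to 15 downstream asymmetries.

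Among named stretches and alternatives, 623 values kept their direction and side of the threshold, 105 lost the call, 12 gained one and 37 changed sign, all 37 in level. Under file totals the level was -1.31 for 7SK, -1.22 for tRNA-Ser, -1.21 for tRNA-Lys, -0.69 and -1.28 for the tRNA-Ala genes on chromosomes 4 and 11, -0.76 for tRNA-Glu in Arrb1, -1.40 for the unmatched stretch and -1.50 for tRNA-Cys on chromosome 6, -0.48 for RNase MRP RNA, -0.57 for a Y RNA, -0.98 for U6 beside Med16 and -0.10 for 7SL beside Nemf. As deposited it was -1.05, -0.39 and -0.78 for the first 3, -0.67 for tRNA-Ala on chromosome 11, -0.23 for tRNA-Glu, -0.83 for the unmatched stretch, -1.05 for tRNA-Cys and -0.058 for that U6. With median of ratios it was -1.37, -0.94 and -1.21 for the first 3, -0.40 and -1.11 for tRNA-Ala, -0.67 for tRNA-Glu, -1.34 for the unmatched stretch, -1.52 for tRNA-Cys, -0.32 for the Y RNA and -0.62 for U6. Anchoring on 50% gave -0.25 for 7SK and -0.55 for tRNA-Cys, which was -0.32 at a pseudocount of 0.25 and -0.05 without input replicate 2. Leaving out H3K4-titled replicate 1 or 2 gave 1.17 and -2.14 for tRNA-Tyr on chromosome 13, 2.90 and -1.15 for tRNA-Glu, and 1.97 and -1.95 for tRNA-Cys. The cause was not tested beyond what each alternative changes.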
